A study of Mus musculus with 79 samples.

Results

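The genes described here carry out the synthesis, packaging and clearance of GABA, the main inhibitory transmitter of the cortex. They are Gad1, Gad2, Slc32a1, Abat and Slc6a11, 5 of the 38879 genes in the deposited table, taken by symbol across 4 kinds of neuron and both arms of a stress study. All 5 had a mean of at least 10 normalized counts in every comparison and so entered every test. UCMS mice were male C57Bl/6J mice given a changing sequence of mild stressors for 5 weeks and housed singly, and control mice were unstressed males of the same strain housed in groups with littermates. Stress and single housing therefore cannot be told apart. The 4 kinds were pyramidal neurons (PYR) and 3 interneuron types, named for parvalbumin (PV), for somatostatin (SST) and for the peptide VIP, and all were located with RNA probes in frozen sections of the medial prefrontal cortex and cut out by laser. Each library pooled 130 cells of 1 type from 1 mouse. There were 20 mice, 10 per arm, and 79 libraries, since UCMS mouse U609 had no PV library. UCMS PV libraries thus numbered 9 and every other group 10. The values are normalized counts, in which the size factor of a library had already been divided out.

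GABA is made from glutamate by glutamate decarboxylase, an enzyme that needs pyridoxal phosphate, the active form of vitamin B6. Gad1 and Gad2 encode its forms, the first found throughout the cell and the second concentrated at nerve terminals. Slc32a1 encodes the transporter that loads GABA into synaptic vesicles. After release, GABA is taken up again by plasma membrane transporters, among them the product of Slc6a11, which in the cortex is known mainly from astrocytes. Abat encodes GABA transaminase, the mitochondrial enzyme that breaks GABA down.

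Libraries held 3642579 to 13529571 reads counted on genes and 9033 to 20307 genes with at least 1 read. The labelled types carried their markers. The summed VIP neuron markers averaged 15375 normalized counts in UCMS VIP and 16482 in control VIP libraries, and at most 794 in any other type. The summed somatostatin neuron markers averaged 23166 in UCMS SST and 24263 in control SST libraries and at most 2146 elsewhere, and the summed parvalbumin neuron markers 4538 and 4540 in PV libraries and at most 210 elsewhere. Pyramidal markers were highest in PYR libraries, at 17173 in UCMS and 18706 in control mice, but averaged 4639 to 7700 in the interneuron groups. All 12 astrocyte markers had reads in every group. Since each library is a pool of captured cells, fewer cells of a type and less RNA per cell cannot be told apart in any level given below.

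By the GENCODE annotation on GRCm38, 3 of the genes lie on chromosome 2. Gad1 (ENSMUSG00000070880) spans 70553072 to 70602014, Gad2 (ENSMUSG00000026787) 22622205 to 22693874 and Slc32a1 (ENSMUSG00000037771) 158610767 to 158615748, all on the plus strand. Slc6a11 (ENSMUSG00000030307) lies on chromosome 6 from 114131241 to 114249952 and Abat (ENSMUSG00000057880) on chromosome 16 from 8513429 to 8621568, also on the plus strand. The antisense gene Gm14205 shares 697 exonic bases with Slc32a1. It had reads in only 2 of the 79 libraries, but whether counting used the strand is not given in the sources used here, so reads of the pair cannot be told apart. Gad1os, antisense to Gad1, shares 0 exonic bases with it.

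Because Gad1, Gad2 and Slc32a1 were the members whose levels rose and fell together most closely over the libraries, their promoters are shown, each from 250 bases before to 50 bases after the gene's start in RefSeq (GRCm38.p6, plus strand, 5′ to 3′). Capitals mark every match, on either strand, to an E-box (CANNTG, bound by basic helix-loop-helix factors), a TATA box (TATAAA), a GC box (GGGCGG) or the homeobox core TAATTA.
Gad1, chr2:70561879-70562178: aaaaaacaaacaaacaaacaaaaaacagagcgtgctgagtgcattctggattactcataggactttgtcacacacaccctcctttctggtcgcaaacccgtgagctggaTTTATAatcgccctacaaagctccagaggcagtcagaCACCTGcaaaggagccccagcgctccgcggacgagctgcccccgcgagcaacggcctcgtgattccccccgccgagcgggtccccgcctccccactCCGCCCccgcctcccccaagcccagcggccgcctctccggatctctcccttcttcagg
Gad2, chr2:22622077-22622376: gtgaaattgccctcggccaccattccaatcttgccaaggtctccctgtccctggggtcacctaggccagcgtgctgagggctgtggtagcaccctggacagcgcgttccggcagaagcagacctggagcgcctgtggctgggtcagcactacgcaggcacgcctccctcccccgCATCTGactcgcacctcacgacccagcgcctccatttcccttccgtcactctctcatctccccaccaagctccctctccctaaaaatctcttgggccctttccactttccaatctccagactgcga
Slc32a1, chr2:158610508-158610807: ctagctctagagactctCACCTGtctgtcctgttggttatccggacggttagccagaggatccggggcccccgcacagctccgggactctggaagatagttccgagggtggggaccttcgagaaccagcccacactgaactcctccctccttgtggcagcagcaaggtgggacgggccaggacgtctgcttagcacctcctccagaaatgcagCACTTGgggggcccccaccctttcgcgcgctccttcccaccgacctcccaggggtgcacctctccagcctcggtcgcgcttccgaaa

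The RefSeq starts used for Gad1 and Gad2 lie inside the GENCODE spans of these genes, downstream of their outermost starts. The Gad1 window held 1 E-box, 1 TATA box and 1 GC box, the Gad2 window 1 E-box and the Slc32a1 window 2 E-boxes. An E-box is in 72.3% of the 32817 promoters of the same length, a TATA box in 13.6% and a GC box in 35.6%. TAATTA, which is in 5.30% of them, was in none of the 3 windows. The windows held 21, 14 and 17 CpG dinucleotides for Gad1, Gad2 and Slc32a1, above the median of 7 over all promoters. The Slc6a11 window held 1 E-box, 4 GC boxes and 32 CpG. Of the 5 members, 4 had a promoter in the table, and Abat had none. These matches are descriptions of the sequence only.

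Gad1 was the most abundant member in PV neurons, and PV neurons held more of it than any other type. Gad1 averaged 10527 ± 1430 normalized counts in UCMS PV libraries (SD, n = 9; range 9306 to 12796, median 9926), against 10316 ± 2029 in control PV libraries (n = 10; range 7683 to 13854, median 9827). SST libraries held 3780 ± 547 in UCMS mice (n = 10; range 3338 to 5117, median 3664) and 4139 ± 983 in control mice (n = 10; range 2913 to 6237, median 4192). VIP libraries held 3284 ± 720 in UCMS mice (n = 10; range 2108 to 4459, median 3132) and 4245 ± 934 in control mice (n = 10; range 3105 to 6434, median 4161). The lowest PV library of either arm was above the highest SST and the highest VIP library, while the SST and VIP ranges overlapped. In PYR neurons Gad1 stood at 130 ± 88.8 in UCMS mice (n = 10; range 3.47 to 335, median 102) and at 212 ± 152 in control mice (n = 10; range 72.9 to 480, median 163), below every interneuron library.

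Gad2 had a different order of means from Gad1, with SST neurons at the top. In SST libraries it averaged 4152 ± 743 normalized counts in UCMS mice (n = 10; range 2757 to 5030, median 4440) and 4409 ± 851 in control mice (n = 10; range 2897 to 5713, median 4289). PV libraries held 3266 ± 804 in UCMS mice (n = 9; range 1950 to 4612, median 3192) and 2830 ± 796 in control mice (n = 10; range 1864 to 4165, median 2879). VIP libraries held 2138 ± 532 in UCMS mice (n = 10; range 1265 to 2795, median 2331) and 2319 ± 570 in control mice (n = 10; range 1289 to 3216, median 2258). The SST, PV and VIP ranges overlapped. Within mice, Gad2 was higher in SST than in VIP libraries in 10 of 10 UCMS and 10 of 10 control mice. It was higher in PV than in SST libraries in 3 of 9 UCMS and 0 of 10 control mice. PYR libraries held 118 ± 69.2 in UCMS mice (n = 10; range 44.0 to 229, median 91.6) and 140 ± 100 in control mice (n = 10; range 11.1 to 285, median 140), again below every interneuron library.

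Slc32a1, the vesicular GABA transporter, was at like levels in PV and SST neurons and lower in VIP neurons. PV libraries held 1153 ± 208 normalized counts in UCMS mice (n = 9; range 870 to 1546, median 1100) and 1310 ± 309 in control mice (n = 10; range 876 to 1835, median 1303). SST libraries held 1184 ± 270 in UCMS mice (n = 10; range 798 to 1679, median 1221) and 1113 ± 353 in control mice (n = 10; range 429 to 1670, median 1051). VIP libraries held 543 ± 140 in UCMS mice (n = 10; range 227 to 698, median 562) and 733 ± 369 in control mice (n = 10; range 188 to 1248, median 736). In UCMS mice the VIP range lay wholly below the PV and SST ranges, and in control mice it overlapped both. In PYR libraries Slc32a1 stood at 34.5 ± 33.1 in UCMS mice (n = 10; range 0.694 to 92.4, median 27.0) and at 35.8 ± 53.2 in control mice (n = 10; range 0 to 157, median 12.2). It had 3 reads or fewer in 3 of the 10 UCMS and 4 of the 10 control PYR libraries, 2 of the controls at 0, so its PYR level rests on few reads.

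Abat, which encodes the enzyme of GABA breakdown, followed PV, SST, VIP and PYR neurons in falling order of mean. In PV libraries it averaged 2740 ± 720 normalized counts in UCMS mice (n = 9; range 1585 to 3935, median 2777) and 2813 ± 571 in control mice (n = 10; range 1845 to 3737, median 2900). SST libraries held 1845 ± 341 in UCMS mice (n = 10; range 1334 to 2244, median 1964) and 1894 ± 669 in control mice (n = 10; range 1209 to 3435, median 1811). VIP libraries held 1191 ± 515 in UCMS mice (n = 10; range 484 to 2143, median 1268) and 1280 ± 612 in control mice (n = 10; range 534 to 2128, median 1227). Neighbours in this order overlapped throughout the interneurons. PYR libraries held 386 ± 110 in UCMS mice (n = 10; range 256 to 572, median 363) and 432 ± 161 in control mice (n = 10; range 120 to 624, median 465), so that Abat, unlike Gad1, Gad2 and Slc32a1, was no lower than 119.8 in any PYR library.

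Slc6a11, the plasma membrane GABA transporter, was low in every type and scattered. VIP libraries held 478 ± 187 normalized counts in UCMS mice (n = 10; range 276 to 842, median 437) and 404 ± 310 in control mice (n = 10; range 109 to 1222, median 328). SST libraries held 260 ± 111 in UCMS mice (n = 10; range 106 to 406, median 292) and 258 ± 210 in control mice (n = 10; range 45.2 to 676, median 188). PV libraries held 187 ± 101 in UCMS mice (n = 9; range 70.3 to 358, median 225) and 181 ± 114 in control mice (n = 10; range 1.99 to 352, median 206). The lowest of these, control PV mouse U3, had 1 of the smallest read totals. PYR libraries held 216 ± 114 in UCMS mice (n = 10; range 72.5 to 488, median 194) and 354 ± 190 in control mice (n = 10; range 82.0 to 648, median 336). All 4 types overlapped in both arms.

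**Figure D1:**
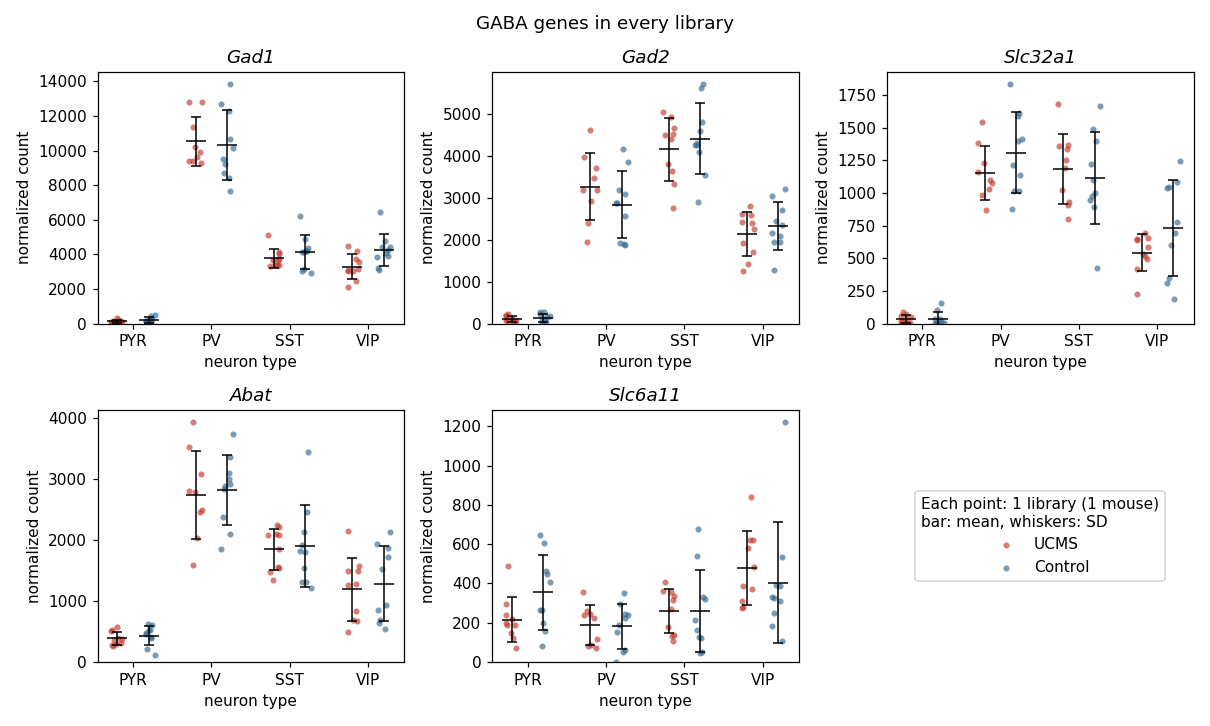
Normalized counts of each GABA gene in every library, with UCMS libraries in red to the left of control libraries in blue for each neuron type (points, 1 library each; bars, mean; whiskers, SD). Gad1 in PV libraries lies above all SST and VIP libraries, Gad2 is highest on average in SST libraries, and Slc6a11 overlaps across types.

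Levels of different genes were compared after dividing by exonic length. This was the merged length of all annotated exons, 7639 bases over 8 transcripts for Gad1 and 5876 bases over 2 for Gad2. Which transcripts were expressed was not tested, so the order of genes per kilobase depends on this choice of length. Per kilobase, UCMS PV libraries held 1378 ± 187 normalized counts of Gad1, 556 ± 137 of Gad2, 412 ± 74.2 of Slc32a1, 354 ± 92.9 of Abat and 36.9 ± 19.99 of Slc6a11 (SD, n = 9). Control PV libraries held 1350 ± 266, 482 ± 136, 468 ± 111, 363 ± 73.6 and 35.8 ± 22.5 per kilobase for the same genes in that order (n = 10). Gad1 thus stood alone at the top in PV neurons, and the ranges of Gad2, Slc32a1 and Abat overlapped one another. In SST neurons Gad2 led per kilobase, at 707 ± 127 in UCMS and 750 ± 145 in control mice, ahead of Gad1 at 495 ± 71.5 and 542 ± 129 (n = 10 each), with overlapping ranges. Before dividing by length these means were closer, at 4152 and 4409 for Gad2 and 3780 and 4139 for Gad1.

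The neuron types were compared within mice, with all 4 types of an arm in 1 limma model on log2(normalized count + 4) and the mouse as a block. Pairs of types within an arm share libraries and 1 estimate of the spread per gene. SE, intervals and calls between interneuron types therefore also carry the scatter of the PYR libraries. For Gad1 in UCMS mice the SD was 68.4% of the mean in PYR and 13.6% in PV libraries. A gene was called at an adjusted p under 0.05 (Benjamini-Hochberg over all genes tested) together with a difference of at least 2-fold. Gad1, Gad2, Slc32a1 and Abat were called higher in each interneuron type than in PYR neurons, in both arms, and Slc6a11 was called in none of the 6. Interneurons are defined by GABA, so this checks the capture. The 4 calls of 5 compare with 8.65% of all genes called for PV against PYR neurons in UCMS mice and 6.52% in control mice. The shares were 4.38% and 3.59% for SST against PYR neurons and 3.38% and 2.94% for VIP against PYR neurons, UCMS mice before control mice. Adjusted p for these 24 calls ran from 1.03e-60 to 1.85e-07. Slc6a11 in VIP against PYR neurons of UCMS mice was at 1.20 on the log2 scale (SE 0.434, adjusted p = 0.0931), higher in 9 of 10 mice. It was called with DESeq2 (1.17, adjusted p = 0.0139; 7.32% of all genes called), with the VIP and PYR libraries alone (1.20, adjusted p = 0.0458; 3.31%) and without mouse U602 (1.42, adjusted p = 0.0438).

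The sizes of those differences set Abat apart from the others. Against PYR neurons, Gad1 was higher in PV neurons by 6.74 on the log2 scale in UCMS mice (SE 0.345) and by 5.86 in control mice (SE 0.233), and Gad2 by 4.91 (SE 0.201) and 4.75 (SE 0.263). Slc32a1 was higher by 5.56 (SE 0.392) and 6.19 (SE 0.469). For a gene so low in PYR libraries this size depends on the settings. Over the other settings and tools it ran from 4.81 to 5.995 in UCMS and from 5.19 to 6.93 in control mice. Abat was higher by 2.85 (SE 0.206) and 2.80 (SE 0.238). In VIP neurons the Abat difference was 1.53 (SE 0.199) in UCMS and 1.52 (SE 0.238) in control mice, while the other 3 genes were higher by 4.29 to 5.01 in UCMS and 4.48 to 5.17 in control mice. The members' median difference for PV against PYR neurons was 4.91 in UCMS and 4.75 in control mice, beside -0.15 and -0.07 over all genes tested. The summed somatostatin neuron markers also stood at 477 ± 139 in UCMS PYR libraries and at 602.5 ± 239 in control PYR libraries (SD, n = 10 each). Most of that was Grin3a, a glutamate receptor subunit, at 265 and 341, with Sst itself at 81.5 and 87.2 and Chodl and Cort at 0 in all 10 UCMS libraries. The VIP neuron markers summed to 148 in UCMS and 185 in control PYR libraries, and the parvalbumin neuron markers to 67.2 and 77.3. The part of RNA from other cells in the PYR levels was not tested.

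Among the interneuron types, Gad1 was the member that set PV neurons apart. It was higher in PV than in SST neurons by 1.51 on the log2 scale in UCMS mice (SE 0.345, adjusted p = 0.00584) and by 1.33 in control mice (SE 0.233, adjusted p = 0.000176), in 9 of 9 and 10 of 10 mice. Against VIP neurons the difference was 1.73 in UCMS mice (SE 0.345, adjusted p = 0.000797) and 1.28 in control mice (SE 0.233, adjusted p = 0.000162), again in 9 of 9 and 10 of 10 mice. SST and VIP neurons differed in Gad1 by 0.22 in UCMS mice (95% interval -0.46 to 0.91) and by -0.04 in control mice (-0.52 to 0.43), neither past the threshold. Both intervals use the spread shared with the PYR libraries. Gad1 was the 1 member of 5 called for PV against SST neurons in either arm, where 3.79% of all genes were called in UCMS and 2.80% in control mice. Gad2 was at -0.36 in UCMS and -0.67 in control mice for that pair, under 2-fold and not called.

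Between PV and VIP neurons, Abat was higher in PV neurons as well, by 1.32 in UCMS mice (SE 0.206, adjusted p = 8.39e-08, 9 of 9 mice) and by 1.27 in control mice (SE 0.238, adjusted p = 1.62e-05, 9 of 10 mice). Slc6a11 was lower in PV than in VIP neurons of UCMS mice, by -1.45 on the log2 scale (SE 0.449, adjusted p = 0.0187), in 9 of 9 mice. In control mice its difference was -1.43 (SE 0.596, adjusted p = 0.144), in 8 of 10 mice, which did not pass, and without mouse U3, whose VIP library was the highest and PV library the lowest, it was -0.74. The UCMS call was lost without mouse U604 (log2 difference -1.22, adjusted p = 0.0890), U605 (-1.26, adjusted p = 0.0581) or U606 (-1.29, adjusted p = 0.0625). In all, 3 of the 5 members were called for PV against VIP neurons in UCMS mice and 2 in control mice, where 8.20% and 5.32% of all genes were called. Slc32a1 was at 1.07 (SE 0.392, adjusted p = 0.0581) in UCMS and 1.02 (SE 0.469, adjusted p = 0.208) in control mice, and fitted on the PV and VIP libraries alone it passed in both arms (1.15, adjusted p = 0.00157, and 1.02, adjusted p = 0.0143), where 5.59% and 4.34% of all genes were called.

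Gad2 differed between SST and VIP neurons, at just under 2-fold. It was higher in SST neurons by 0.98 in UCMS mice (SE 0.194, adjusted p = 9.81e-05) and by 0.94 in control mice (SE 0.263, adjusted p = 0.0249). The adjusted p in control mice was above 0.05 without mouse U3, U8 or U9 (at most 0.129) and under 6 of the other settings and tools (at most 0.452). Gad2 passed the adjusted p but not the fold, so 0 of 5 members were called for SST against VIP neurons in either arm. Of all genes, 3.09% were called in UCMS mice and 2.25% in control mice. By limma, 4 members in UCMS and 2 in control mice had an unadjusted p under 0.05. So did 2592 of 17638 genes in UCMS and 2309 of 17498 in control mice. Slc32a1 was at 1.14 in UCMS mice (SE 0.378, adjusted p = 0.0603; higher in 10 of 10 mice) and 0.74 in control mice (SE 0.469, adjusted p = 0.531; 8 of 10). In UCMS mice edgeR on the recovered reads called 1 member, Gad2 (1.02, adjusted p = 0.00879), and 1.79% of all genes. With the SST and VIP libraries alone limma called 1, Slc32a1 (1.14, adjusted p = 0.000146), and 2.80% of all genes.

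**Figure D2:**
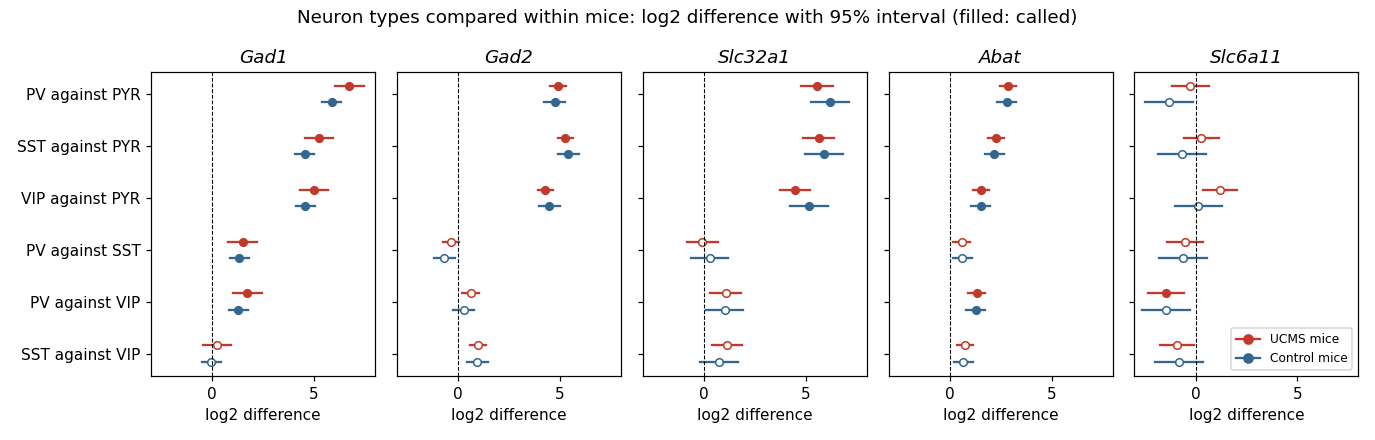
Log2 difference of each GABA gene between neuron types within mice, first-named type minus second, for UCMS mice (red, upper) and control mice (blue, lower), with 95% intervals; filled points were called. Gad1, Gad2, Slc32a1 and Abat are right of 0 against PYR neurons in both arms, and Gad1 also for PV against SST and VIP neurons.

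The balance of the 2 decarboxylase genes within a library differed on average between all 3 interneuron types. Its SST and VIP ranges overlapped in both arms, and its PV and VIP ranges overlapped in control mice. The log2 ratio of Gad1 to Gad2, with 4 added to each, averaged 1.72 ± 0.389 in UCMS PV libraries (SD, n = 9; 1.14 to 2.26, median 1.69) and 1.89 ± 0.465 in control PV libraries (n = 10; 1.40 to 2.89, median 1.76). It was 0.63 ± 0.351 in UCMS VIP libraries (n = 10; -0.17 to 1.11, median 0.71) and 0.88 ± 0.425 in control VIP libraries (n = 10; 0.33 to 1.72, median 0.80). In SST libraries it was -0.12 ± 0.337 in UCMS mice (n = 10; -0.53 to 0.55, median -0.09) and -0.10 ± 0.315 in control mice (n = 10; -0.49 to 0.55, median -0.11). In counts not divided by length, Gad1 exceeded Gad2 in every PV library and in 4 of 10 SST libraries of each arm. Per kilobase the ratio of means was 2.48 in UCMS and 2.80 in control PV, 1.18 and 1.41 in VIP and 0.70 and 0.72 in SST libraries. In PYR libraries, where both genes were low, the ratio ran from -3.67 to 1.98 in UCMS and from -0.76 to 3.42 in control mice.

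The ratio differed between the types within mice in both arms. It was higher in PV than in SST neurons by 1.86 ± 0.670 in UCMS mice (SD, n = 9) and by 1.99 ± 0.459 in control mice (n = 10), in every mouse (exact sign-flip test, adjusted p = 0.00651 in each arm over 10 comparisons). PV exceeded VIP neurons by 1.05 ± 0.678 in UCMS and 1.01 ± 0.534 in control mice, in 9 of 9 and 10 of 10 mice (exact sign-flip test, adjusted p = 0.00651 in each). SST minus VIP was -0.76 ± 0.298 in UCMS mice and -0.99 ± 0.517 in control mice, positive in 0 of 10 and 1 of 10 mice (exact sign-flip test, adjusted p = 0.00651 in each). UCMS and control mice did not differ past the threshold in the ratio within any type. UCMS minus control was -0.87 for PYR neurons, -0.18 for PV, -0.02 for SST and -0.25 for VIP neurons (permutation tests, exact for PV; adjusted p = 0.274, 0.438, 0.874 and 0.238).

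**Figure D3:**
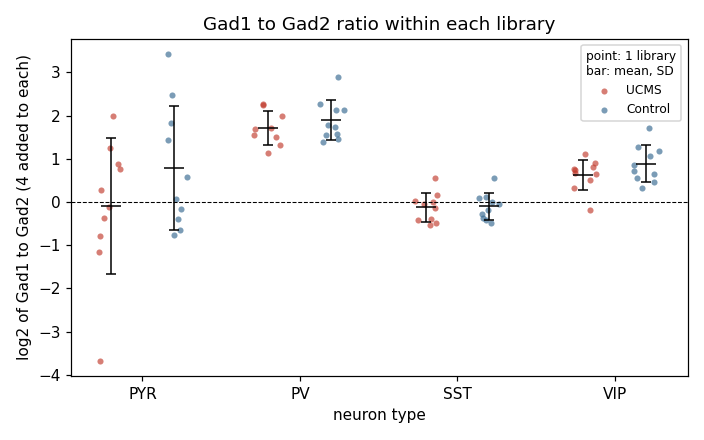
Log2 ratio of Gad1 to Gad2 normalized counts in each library, with UCMS (red) left of control (blue) for each neuron type (bar, mean; whiskers, SD; dashed line, equal counts). PV libraries lie above 1, SST libraries around 0 and VIP libraries mostly between them, while PYR libraries scatter.

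The study's main question was what stress changed in each type. UCMS and control mice were compared with limma in each type separately, and 0 of the 5 members were called at an adjusted p under 0.05 in any of them. Over all genes, 13 of 16092 were called in PYR neurons (0.0808%), and none in PV (0%, 16847 tested), SST (0%, 17108 tested) or VIP neurons (0%, 19451 tested). The number of genes at an unadjusted p under 0.05 was 1023, 630, 979 and 1001 in the same order. The members' median log2 fold change was -0.08 in PYR, 0.04 in PV, 0.01 in SST and -0.12 in VIP neurons, beside 0.10, 0.05, 0.15 and 0.17 over all genes. The medians over all genes changed with the tool and were 0.013, -0.016, -0.0037 and 0.028 with DESeq2 in the same order. With edgeR on the recovered reads 0 members were called in every type, while over all genes 0% were called in PYR, PV and SST neurons and 4.61% (896 of 19451) in VIP neurons. With DESeq2 0 members were called as well, while over all genes the share was 0.242% in PYR, 0.332% in PV, 0.316% in SST and 0.555% in VIP neurons.

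Gad1 in VIP neurons was the 1 member with an unadjusted p under 0.05 within a type. Its mean of 3284 in UCMS mice, against 4245 in control mice, was a log2 fold change of -0.37 (SE 0.135, 95% interval -0.64 to -0.11, unadjusted p = 0.00563 and adjusted p = 0.932 by limma). In UCMS mice 8 of 10 libraries lay under the median of the controls, and the ranges overlapped. Over 11 other settings and tools the fold change ran from -0.46 to -0.33 and the adjusted p from 0.372 to 0.966. In PYR neurons Gad1 had a log2 fold change of -0.81 with a wide interval (-1.85 to 0.24, adjusted p = 0.837), with 7 of 10 UCMS libraries below the control median. UCMS PYR mouse U605 had 5 reads of Gad1, where the other UCMS PYR libraries had 89 to 262, and without it the fold change was -0.39. In PV neurons, which hold most Gad1, it was 0.04 (95% interval -0.12 to 0.20), and in SST neurons -0.11 (-0.34 to 0.12), with 9 of 10 UCMS SST libraries below the control median.

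The other members gave these values. Gad2 had log2 fold changes of 0.06 in PYR (95% interval -1.11 to 1.24), 0.22 in PV (-0.07 to 0.51), -0.08 in SST (-0.31 to 0.14) and -0.12 in VIP neurons (-0.47 to 0.23). Its sign in PYR neurons was negative in edgeR and DESeq2. Slc32a1 was at 0.42 in PYR (-1.29 to 2.12), where it too was negative in edgeR, DESeq2 and after quantile normalization, -0.17 in PV (-0.62 to 0.28), 0.14 in SST (-0.29 to 0.56) and -0.27 in VIP neurons (-0.96 to 0.42). In VIP neurons 0 of 10 UCMS libraries were above the control median of Slc32a1, but the control libraries spread to both sides of the UCMS range. Without the 7 libraries with the fewest reads, 6 of them VIP (2 UCMS and 4 control), the fold change was 0.0066. Abat lay between -0.08 and 0.01 in all 4 types, with intervals from -0.36 to 0.25 in PV and from -0.67 to 0.51 in PYR neurons.

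In PYR neurons 9 of 10 UCMS libraries lay under the control median of Slc6a11, at a log2 fold change of -0.63 (SE 0.384, 95% interval -1.39 to 0.12, adjusted p = 0.827). The summed astrocyte markers averaged 9322 in UCMS and 9611 in control PYR libraries, with 5 of 12 markers higher on average in UCMS mice, and with that sum as a covariate the fold change was -0.62. In PV, SST and VIP neurons Slc6a11 was at 0.40 (-0.98 to 1.79), 0.33 (-0.69 to 1.36) and 0.42 (-0.43 to 1.28). Without control PV mouse U3, which had 1 read of the gene, the PV fold change was -0.08.

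Averaged over the 3 interneuron types with 1 mean per mouse (9 UCMS and 10 control mice, U609 left out), 0 of 5 members were called, as of all 17883 genes (0%; 961 at an unadjusted p under 0.05). Gad1 was at -0.16 (SE 0.0684, 95% interval -0.29 to -0.02, unadjusted p = 0.0208 and adjusted p = 0.917 by limma). Gad2 was at -0.01, Slc32a1 at -0.13, Abat at -0.08 and Slc6a11 at 0.38. Whether the stress effect differed between the 4 types was tested with a limma F test with the mouse as a block. It called 0 of 5 members and 0% of 17427 genes (816 at an unadjusted p under 0.05), with unadjusted p of 0.191 for Gad1, 0.787 for Gad2, 0.662 for Slc32a1, 0.419 for Slc6a11 and 0.992 for Abat. This F test covered all 4 types at once. The response of Gad1 to stress in VIP against PV neurons alone was not tested, so a difference between these types is not shown.

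**Figure D4:**
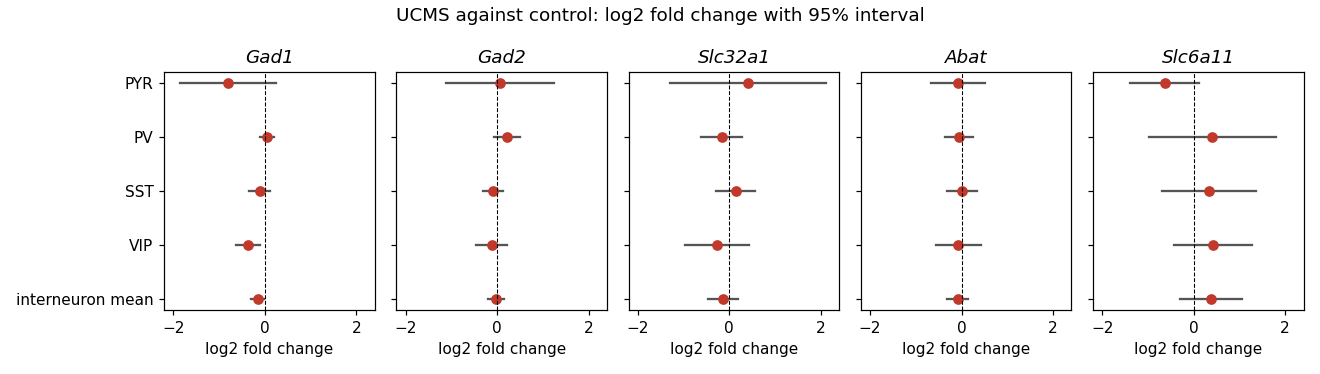
Log2 fold change of each GABA gene in UCMS against control mice, with 95% intervals, in each neuron type and for the mean of the 3 interneuron types. The interval of Gad1 excludes 0 in VIP neurons and for the interneuron mean before adjustment over all genes, and no other interval does.

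Slc6a11 and Abat are both also known from astrocytes, so their levels were set against the sum of 12 astrocyte markers over the libraries of each type, after removing the mean of each arm. Slc6a11 rose with the markers in SST libraries (Pearson r = 0.58, permutation adjusted p = 0.0373; Spearman rho = 0.63, adjusted p = 0.0247; 20 libraries, 8 relations), and r was 0.73 without the 2 libraries farthest out in the markers. With 4 of the markers, Aqp4, Gfap, Gja1 and Aldh1l1, r in SST libraries was 0.28 (permutation adjusted p = 0.375), and in PV libraries it was 0.71 (permutation adjusted p = 0.0386), where all 12 gave 0.22. Which libraries show a relation thus changed with the markers chosen. Abat rose with them in VIP libraries (r = 0.55, permutation adjusted p = 0.0373; rho = 0.52, adjusted p = 0.0748; r = 0.42 without the 2 farthest libraries). For Slc6a11 r was 0.35 in PYR and 0.25 in VIP libraries, and for Abat it was -0.41 in PV and -0.16 in SST libraries, none past the threshold.

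Astrocyte markers also moved with neuron type. Their sum ran from 9627 to 16610 in UCMS VIP libraries and from 4615 to 9661 in UCMS PV libraries, with all 12 markers higher on average in VIP libraries. In control mice it ran from 7348 to 18287 in VIP and from 6904 to 11450 in PV libraries, with 8 of 12 higher. The part of these markers in the Slc6a11 difference between PV and VIP neurons was not tested. Most of the sum was Slc1a2, a glutamate transporter, at 9196 ± 1713 in UCMS VIP and 5467 ± 1060 in UCMS PV libraries. Gfap, the filament protein of astrocytes, averaged 43.0 in UCMS VIP libraries, 5 of 10 of them at 0, and 5.24 in UCMS PV libraries, 7 of 9 of them at 0.

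**Figure D5:**
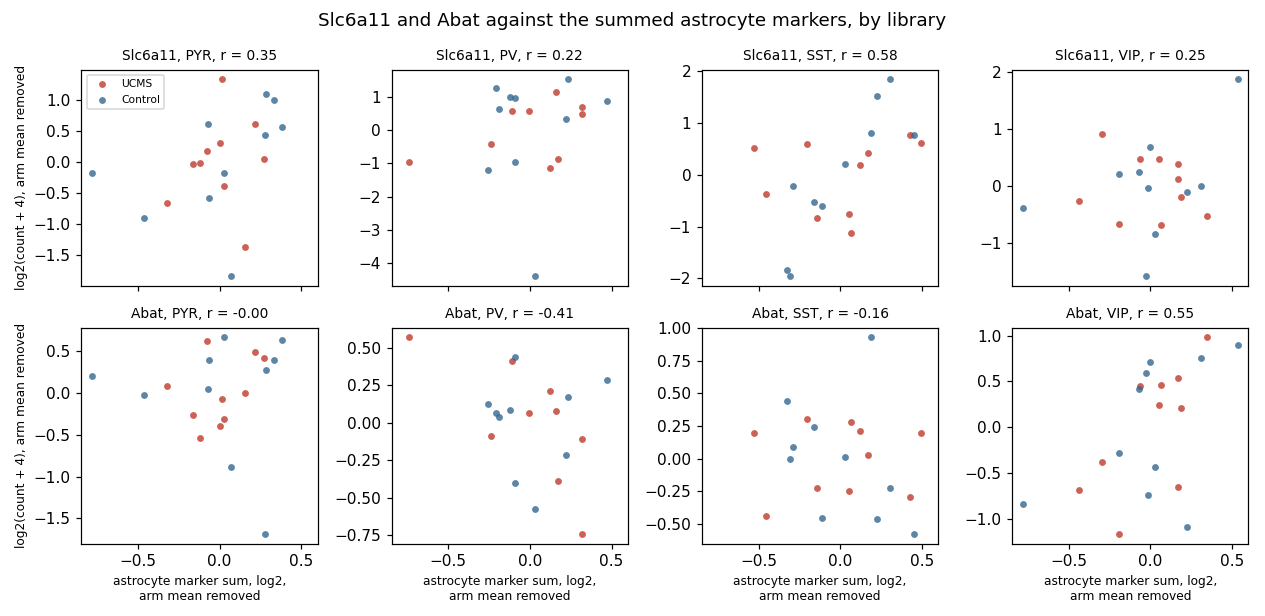
Log2(normalized count + 4) of Slc6a11 (upper row) and Abat (lower row) against the log2 sum of 12 astrocyte markers in each library, both with the mean of the arm removed (red, UCMS; blue, control). Slc6a11 in SST libraries and Abat in VIP libraries rise with the markers, with r of 0.58 and 0.55.

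A list of 15 other genes of the pathway covered the supply of glutamate and of the cofactor, the removal of the product of Abat, and other routes that make or carry GABA. Of these, 13 or 14 passed the filter on low values in each comparison, and 0 were called between UCMS and control mice in any type, for the interneuron mean or for the difference between types. Among those nearest to the threshold in each type were Glud1, glutamate dehydrogenase, at 0.79 in PYR neurons (SE 0.311, adjusted p = 0.683) and Gls2, a glutaminase, at 1.39 (SE 0.698, adjusted p = 0.776). In PV neurons Gls2 was at 1.06 (adjusted p = 0.982). Gls2 was at 0 in 2 of 10 control PYR and 2 of 10 control PV libraries. Its ratios of UCMS to control means were smaller, at 1.59 in PYR and 1.17 in PV neurons. In SST neurons Got1, the cytosolic aspartate aminotransferase, was at -0.50 (adjusted p = 0.853). In VIP neurons Got1 was at 0.58 (adjusted p = 0.932) and Got2, its mitochondrial counterpart, at -0.54 (adjusted p = 0.933). For the difference between types Got1 had an unadjusted p of 0.0166. For the interneuron mean Got2 was at -0.21 and Slc38a2, a glutamine transporter, at 0.30.

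Between types, several of these genes differed in the same direction as Gad1. Against PYR neurons, PV neurons had 6 of 14 called higher in UCMS mice and 5 of 13 in control mice, SST neurons 3 in each arm, and VIP neurons 1 in each arm, with 1 lower in control VIP neurons. Over all genes 8.65% and 6.52% were called for PV, 4.38% and 3.59% for SST and 3.38% and 2.94% for VIP neurons, and a count of 1 in VIP neurons is near that share. Slc38a1, which brings glutamine into neurons, was higher in PV than in PYR neurons by 1.97 in UCMS mice (adjusted p = 7.47e-26) and by 1.67 in control mice (adjusted p = 3.41e-17). Aldh5a1, which oxidizes the product of Abat, was higher by 1.76 (adjusted p = 9.7e-06) and 1.92 (adjusted p = 0.0011). Pdxk, the kinase that makes the cofactor of Gad1, Gad2 and Abat, was higher by 1.14 (adjusted p = 1.47e-06) and 1.33 (adjusted p = 2.23e-05). Glud1 was called for PV and SST against PYR neurons in control mice (1.15 and 1.25), and Slc38a2 for PV against PYR neurons in UCMS mice (1.40).

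Within the interneurons Got1 followed Gad1 in setting PV neurons apart. It was higher in PV than in SST neurons by 1.63 in UCMS mice (adjusted p = 1.04e-09) and 1.17 in control mice (adjusted p = 0.000808), and than in VIP neurons by 1.85 (adjusted p = 1.83e-12) and 2.48 (adjusted p = 1.26e-15). Got1 was also higher in SST than in VIP neurons of control mice (1.31) and lower in VIP than in PYR neurons of control mice (-1.20). Got2 was called for PV against SST (1.10) and VIP neurons (1.47) in UCMS mice. Aldh5a1 was called for PV against VIP neurons in control mice (1.54). The arms were fitted separately, and whether a type difference itself differed between them was not tested.

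Over all 79 libraries, the 5 genes whose log2 pattern was most like a member's included other members for Gad1, Gad2, Slc32a1 and Abat, but not for Slc6a11. The comparison covered 10983 genes with a mean of at least 50. Among the members, Gad2 and Slc32a1 had the highest r with each other (0.91). Gad1 had r of 0.90 with Gad2 and 0.89 with Slc32a1, and Abat had r of 0.82 to 0.83 with those 3. Slc6a11 had r of -0.12 with Gad1, -0.02 with Gad2, -0.09 with Slc32a1 and -0.15 with Abat. Near Gad1 were also Btbd11 (0.91) and Erbb4, a neuregulin receptor (0.88). Grik1, a kainate receptor subunit, had r of 0.88 with Gad2, and Cntnap2, an adhesion protein, 0.86 with Slc32a1. Kcnc2, a fast potassium channel, had r of 0.84 with Abat. Nearest to Slc6a11 were Tle3, a corepressor (0.64), Plppr4, a membrane protein of synapses (0.62), Cacna1d, a calcium channel (0.60), Gpd1l (0.59) and Gng2, a G protein subunit (0.58). These r are descriptions over libraries that share mice, types and depth.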

How the data were processed

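The authors deposited 1 normalized signal per gene in each library, on a scale where a size factor had been divided out of the reads. The submitters' processing notes name DESeq2, HISAT2 and SAMtools 1.3, with GRCm38 (mm10) as build. Which program counted reads, on what annotation and with what use of strand, is not given in the sources used here. In every library 100% of values were whole multiples of the value of a single read, to 0.01 reads. These recovered reads served for read totals (3642579 to 13529571) and for edgeR 4.0.16 and DESeq2 1.42.0 as alternatives. A gene at 0 reads is compatible with up to 3, by counting error only. Identifiers were matched to GENCODE M21 (38636 of 38879; 243 did not match).

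Limma 3.58.1 (trend, robust) took log2(normalized count + 4), kept genes averaging 10 or more, and used a Benjamini-Hochberg adjusted p of 0.05, with 2-fold also needed between types. The added 4 shrinks differences between low values. Fold changes on that scale are differences of mean logs, so for scattered genes they can also exceed those of the means. For Slc32a1 in PYR neurons the log2 fold change of UCMS against control mice was 0.42, where the ratio of means was 0.965. Ratios and relations were tested with 100000 permutations or exactly. The scripts were tested on simulated data. Libraries with 1 number are from 1 mouse, which pairs the types but not the arms. After removing group means, same-mouse libraries correlated at a median of 0.00773, and -0.000605 for different mice, with 0 of 117 pairs over 0.1. Labels give 1 mouse to each library of a group.

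The genes and lists were chosen with earlier results of these data known. Genes named were the 5 members, pathway genes that were called or were among the 2 most extreme in each stress comparison, and the 5 genes most like each member. Some genes that met these rules are not reported here.

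Alternatives were other pseudocounts, filters, scalings, tools, covariates and treatments of the mouse, and leaving out libraries. Fitting only the 2 types compared was added after seeing the data.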

Additional observations from a re-analysis of the deposited data

Results flagged for a closer look

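In 3 of the 40 groups screened (5 genes in 8 groups), 1 library stood far from the other libraries of its group. Chance alone puts about 1 group in 20 past this limit.

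Gad1 in the SST library of UCMS mouse U609 was at 5116.7 normalized counts, and the next highest of the 10 was at 4142. Without it the log2 fold change of Gad1 in SST neurons was -0.16, against -0.11 with it. Gad1 in the VIP library of control mouse U10 was at 6434.1, and the next highest was at 4751. This library had 4568943 reads, among the fewest. Without it the log2 fold change of Gad1 in VIP neurons was -0.30, against -0.37 with it (unadjusted p = 0.0259 and adjusted p = 0.930 by limma). Slc6a11 in the VIP library of control mouse U3 was at 1222.0, and the next highest was at 535. Without it the log2 fold change of Slc6a11 in VIP neurons was 0.63, against 0.42 with it, and the adjusted p by limma was 0.942.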

How the results depend on the processing

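No alternative called a member between UCMS and control mice, in 131 refits over the 4 types and the interneuron mean, and for the difference between types the lowest adjusted p of a member was 0.899. Between types, the count of members called kept within 1.5 times its value except for SST against VIP neurons in UCMS mice, where it was 0, but 1 at a pseudocount of 16, without the 7 libraries with the fewest reads, with edgeR and with only the libraries of the 2 types, and 2 after quantile normalization or scaling to protein-coding reads. Leaving out each mouse gave 0 to 1 there, and 0 to 1 in control mice. With no replicate block, 4 members were called for PV against VIP neurons in UCMS mice, where the block gave 3. Over all genes 1409 of 17638 were called without the block and 1447 with it. All 8 groups with the mouse as a random replicate block gave 0 stress calls.

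Some stress fold changes turned in sign, none of them past the threshold. For Gad2 in PYR neurons (0.06) the value was -0.0036 at a pseudocount of 16, -0.23 with edgeR and -0.26 with DESeq2. For Slc32a1 in PYR neurons (0.42) it was -0.076 after quantile normalization, -0.047 with edgeR and -0.059 with DESeq2. Gad2 over the interneuron mean (-0.01) was at 0.020 after quantile normalization and 0.0038 when scaled to protein-coding reads. Without the 7 libraries Slc6a11 in PV neurons was at -0.083, Slc32a1 in VIP neurons at 0.0066 and its interneuron mean at 0.087. Gad1 in PV neurons was at -0.0019 with the astrocyte covariate, and Abat in SST neurons at -0.042 with DESeq2. Between types, Slc32a1 for PV against SST neurons in UCMS mice was at 0.035 with only those libraries, and Gad1 for SST against VIP neurons in control mice at 0.017 with edgeR.

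With 1 library left out, Abat ran from -0.13 to 0.037 in PV, from -0.055 to 0.11 in SST and from -0.19 to 0.058 in VIP neurons. Gad1 in PV neurons ran from -0.0020 to 0.092, Gad2 in PYR neurons from -0.24 to 0.23, Slc32a1 in SST neurons from -0.0075 to 0.21 and Slc6a11 in PV neurons from -0.083 to 0.57. With 1 mouse left out, Gad1 for SST against VIP neurons in control mice ran from -0.10 to 0.020, Slc32a1 for PV against SST neurons in UCMS mice from -0.17 to 0.035 and Slc6a11 for VIP against PYR neurons in control mice from -0.085 to 0.43.

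Without the 7 libraries, the Gad1 to Gad2 ratio in control mice differed by 0.77 between PV and VIP neurons (5 mice left) and by -0.84 between SST and VIP neurons (6 mice left), each at an exact p of 0.0625, the smallest that 5 mice allow, so the first could not pass. With 4 astrocyte markers, r for Slc6a11 was -0.38 (PYR), 0.71 (PV) and 0.28 (SST), and for Abat 0.051 (PYR) and 0.15 (PV). At a pseudocount of 16 it was 0.0038 for Abat in PYR libraries. The cause of these changes was not tested.

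Over all genes, edgeR called 0, 0, 0 and 896 and DESeq2 39, 56, 54 and 108 between UCMS and control mice in PYR, PV, SST and VIP neurons, where limma called 13, 0, 0 and 0. Between types limma called 394 to 1525 genes, edgeR 204 to 1149 and DESeq2 1185 to 2617. In VIP neurons the median fold change of all genes was 0.17, 0.06 after quantile normalization and -0.013 without the 7 libraries with the fewest reads. DESeq2 was not run for the difference between types. Slc32a1 in PYR neurons had no value at a mean of at least 50. The 7 libraries, 6 of them VIP, had 3642579 to 5863160 reads, so counting error is largest there. Since 4 of these were control VIP and 2 were UCMS VIP libraries, low depth was not balanced between the arms in VIP neurons.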
